A study of Mus musculus with 21 samples.

Results

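Cxcl1, Cxcl2, Cxcl3 and Cxcl5 encode chemokines that draw neutrophils into tissue, and Cxcr2 encodes the receptor through which they act. They were followed in 21 RNA-seq libraries of mouse skin, and their rows were found by gene symbol: 5 of the 64050 symbols in the table of counts. Of these 5 genes, Cxcl1, Cxcl2 and Cxcr2 passed the filter on low counts that 20462 genes passed, and Cxcl3 and Cxcl5 did not. The skin came from bone marrow recipients of a sclerodermatous graft-versus-host disease study and its controls. This disease, in which the graft turns against the host, is a mouse model used for systemic sclerosis.

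Every recipient was a BALB/c mouse, irradiated with 700 cGy at 8 weeks of age and then given bone marrow. Syngeneic recipients (Syn, 4 libraries), the controls for the disease, got BALB/c marrow and an isotype control antibody. Allogeneic recipients got B10.D2 marrow and 1 of 4 treatments: the same isotype antibody (Allo, 4 libraries), mCAN10, an antibody against the co-receptor IL1RAP (mCAN10, 4 libraries), water (Allo_H, 4 libraries) or the kinase inhibitor nintedanib, which blocks the receptors of PDGF, FGF and VEGF (Nin, 5 libraries). Treatment started on day 21 and skin was taken in week 7. Antibodies were injected into the peritoneum, first at 20 mg/kg and then at 10 mg/kg. Nintedanib was dosed at 50 mg/kg. Its route is uncertain, since the protocol gives it by mouth and the design text by injection. Donor strain parts the syngeneic from the allogeneic groups, so that disease and the strain of the donor cells cannot be told apart. The labels do not say whether each replicate is a separate mouse, and p-values therefore measure only the spread between these samples.

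The libraries held between 17130264 and 32899212 counts. The Syn, Allo and mCAN10 libraries (12) were counted in one run and the Allo_H and Nin libraries (9) in another with partly different gene names, so comparisons were made only within a run. All 5 genes had counts in both runs. Levels of skeletal muscle genes varied widely between skin pieces, and the library Allo 1 stood apart with a summed level of 8.21 CPM (counts scaled to library size with TMM factors) against a group maximum of 44730 CPM. Summed hair follicle genes, which mark growing hair, were at 31820 CPM in Nin 1 and 15560 CPM in Nin 3 against 8.64 to 18.7 CPM in the other 3 Nin libraries, and at 450.5 CPM in Allo 1 against 3.63 to 13.6 CPM in the rest of Allo. Summed counts of 4 Y-linked genes were 61 to 154 in the Syn libraries, 0 in every Allo and Allo_H library, and 0 to 480 and 0 to 524 in the mCAN10 and Nin libraries. The part that these differences play in the results below was not tested, other than by a fit with the muscle share as a covariate and by fits without single libraries. The share was entered on the log2 scale, where Allo 1 (0.000842% of counts) lay far below the other libraries (0.372 to 4.24%). The muscle fit and the fits without Allo 1 are therefore not separate checks.

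The 4 ligands belong to the CXC chemokines that carry an ELR motif before the first cysteines. They are released by keratinocytes, fibroblasts, endothelial cells and macrophages after stimulation by IL-1, TNF or IL-17, largely through NF-κB, and their mRNAs are short-lived. CXCR2 is a receptor coupled to inhibitory G proteins that is best known on neutrophils, where it guides migration toward a ligand gradient; other cells, keratinocytes among them, can also carry it. IL1RAP is the shared co-receptor of the IL-1, IL-33 and IL-36 receptors, whose signals pass through the adaptor MyD88.

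The ligand genes lie in 1 cluster on chromosome 5, in the order Rassf6, Cxcl5, Ppbp, Pf4, Cxcl3, Cxcl15, Cxcl1, Cxcl2 and Mthfd2l, while Cxcr2 lies on chromosome 1. Promoter sequences of 4 of the 5 genes were matched in RefSeq (build GRCm38.p6, an older build than the GRCm39 of the counts): Cxcl1, Cxcl2, Cxcl3 and Cxcr2. The 130 bases before the annotated start of each are shown because 3 ligands that are regulated by NF-κB share a motif there. All 4 run 5′ to 3′ on the + strand, and capitals mark matches to the NF-κB core motif GGNNTTTCC on either strand.
Cxcl1, chr5:90891115-90891244: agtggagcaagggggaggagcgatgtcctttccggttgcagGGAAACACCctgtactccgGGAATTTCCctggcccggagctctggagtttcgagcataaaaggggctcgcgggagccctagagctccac
Cxcl2, chr5:90903769-90903898: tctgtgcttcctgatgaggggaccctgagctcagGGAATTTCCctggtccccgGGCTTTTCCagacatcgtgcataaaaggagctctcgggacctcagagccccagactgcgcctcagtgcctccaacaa
Cxcl3, chr5:90785971-90786100: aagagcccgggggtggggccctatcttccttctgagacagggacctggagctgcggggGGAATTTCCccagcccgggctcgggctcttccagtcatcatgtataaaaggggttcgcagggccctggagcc
Cxcr2, chr1:74153864-74153993: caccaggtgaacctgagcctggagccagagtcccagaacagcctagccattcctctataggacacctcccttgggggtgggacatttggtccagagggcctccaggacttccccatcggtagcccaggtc

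The longest run of bases that the 130 bases of Cxcl1, Cxcl2 and Cxcl3 have in common was GGGAATTTCCC, of 11 bases, with its first base 71, 97 and 73 bases before the start. It holds the core motif GGNNTTTCC. In windows of 300 bases (250 before to 50 after the start, both strands), 14 of 32851 RefSeq promoters (0.0426%) held the run of 11 and 5.82% held the core motif. The 3 ligand promoters are among these 14. Since the run was chosen from them, its presence there is not a test. The core motif matched at 1 further place each in Cxcl1, on the minus strand, and in Cxcl2, on the plus strand. A TATA-like ATAAAAG, found in 5.42% of promoters, began 34, 57 and 29 bases before the starts of Cxcl1, Cxcl2 and Cxcl3. None of these motifs, nor the AP-1 motif TGANTCA (7.81% of promoters) or the C/EBP motif TTGCNNAA (10.8%), was in the Cxcr2 window, and the last 2 were in none of the 4 windows. A match is a string of letters and does not show that a factor binds there.

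**Figure D1:**
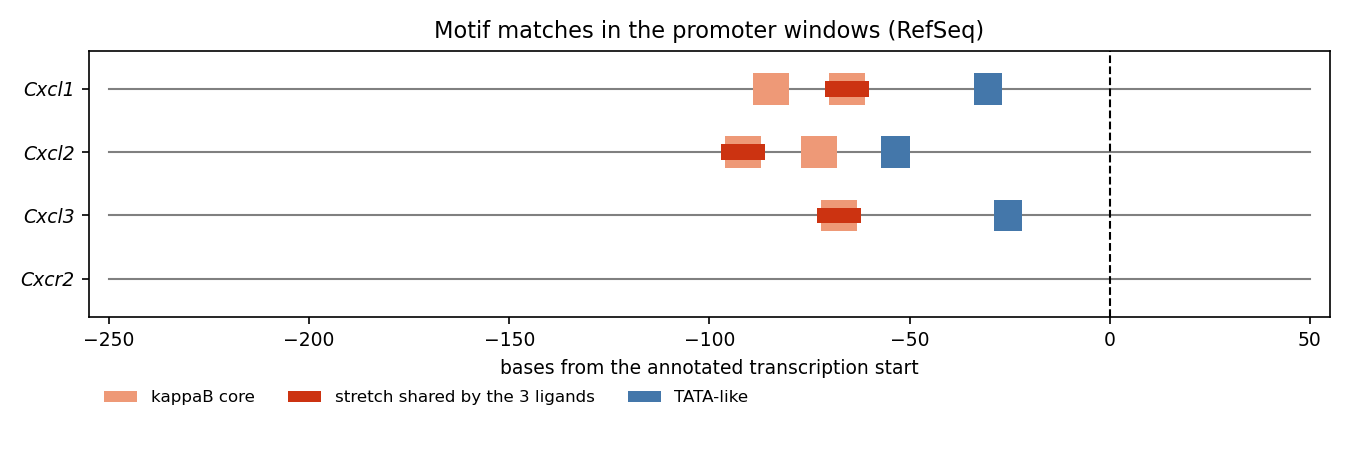
Motif matches in the promoter windows of Cxcl1, Cxcl2, Cxcl3 and Cxcr2; the x axis gives bases from the annotated transcription start (dashed line), each grey line is 1 window of 300 bases and each box 1 match on either strand. The shared run, which holds the NF-κB core motif, begins 71, 97 and 73 bases before the start of the 3 ligand genes, upstream of the TATA-like motif, and the Cxcr2 window holds no match.

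Ligand transcripts were scarce in all 5 groups. In the isotype-treated allogeneic group, 1 library (Allo 1) held most ligand reads, and in the water-treated group 1 library (Allo_H 4) held most Cxcl2 and Cxcl3 reads. Cxcr2, in contrast, had 307 to 462 counts in the 4 Allo libraries and 5 to 29 in the 4 syngeneic libraries of the same run. The 4 water-treated libraries of the second run, which had no syngeneic group, had 140 to 713 Cxcr2 counts.

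**Figure D2:**
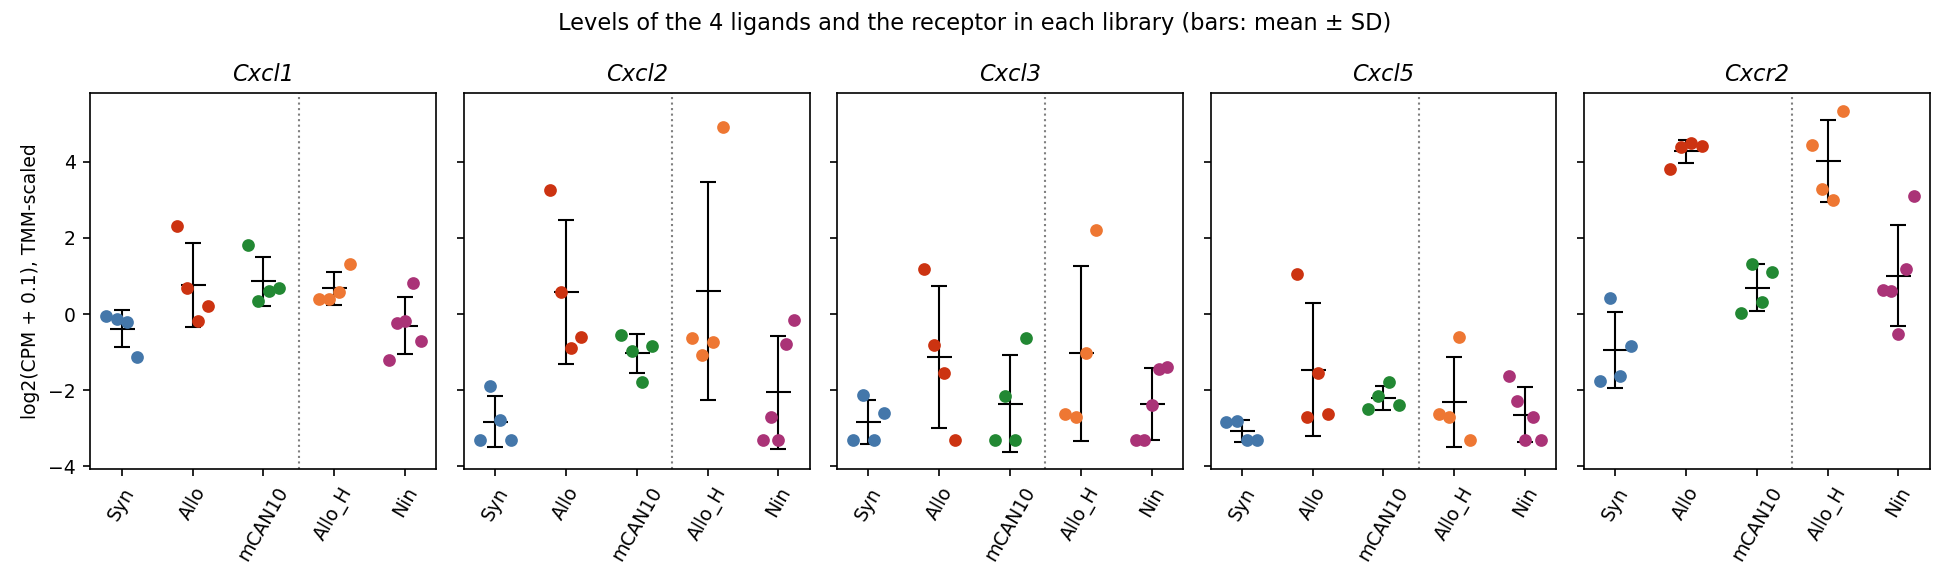
Level of each gene in each library as log2(CPM + 0.1) on the y axis, with 1 point per library in replicate order, the mean and SD of each group as bars, and a dotted line between the counting runs. Cxcr2 in the Allo group (14.08 to 22.34 CPM) lies above every Syn and mCAN10 library, whereas the Cxcl2 points of Allo 1 (9.495 CPM) and Allo_H 4 (29.88 CPM) lie far above the rest of their groups.

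Cxcl1, the keratinocyte-derived chemokine also called KC, had 22, 19, 17 and 11 counts in the Syn libraries and 107, 29, 16 and 17 in the Allo libraries. Allo 1 was far above the syngeneic range. In CPM, Allo 3 (0.774) lay within that range, and Allo 2 (1.508) and Allo 4 (1.06) lay above its highest library (0.859). Means were 0.699 ± 0.229 CPM (SD, n = 4) in Syn and 2.06 ± 1.92 CPM (n = 4) in Allo. The log2 fold change of 1.57 ± 0.56 (SE) narrowly missed the threshold (edgeR adjusted p = 0.0513). DESeq2 called it (adjusted p = 0.0261), and the call was also made without Allo 3 or Allo 4 (edgeR adjusted p = 0.0243 and 0.0434). The edgeR value was 0.68 without Allo 1 (adjusted p = 0.382) and 0.52 with the muscle share as a covariate (adjusted p = 0.565).

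Under mCAN10, Cxcl1 had 88, 37, 30 and 33 counts. The group mean was 1.88 ± 1.02 CPM (n = 4), and these libraries overlapped with the Allo libraries. The difference from Allo was -0.14 ± 0.54 on the log2 scale (edgeR adjusted p = 0.941), with a 95% interval from -1.27 to 0.98 that spans 0. Its sign turned without Allo 1 (0.75) and with the muscle share as a covariate (0.59). Every mCAN10 library was above every Syn library in CPM (1.171 to 3.395 against 0.360 to 0.859), yet the difference of 1.43 ± 0.56 was not called (edgeR adjusted p = 0.265).

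In the second run, Cxcl1 had 20, 23, 25 and 42 counts in Allo_H and 6, 14, 17, 31 and 9 in Nin. The nintedanib group reached lower levels, but Nin 4 lay within the range of the water group. Means were 1.56 ± 0.563 CPM (n = 4) and 0.805 ± 0.508 CPM (n = 5). The log2 difference of -0.95 ± 0.53 was not called (edgeR adjusted p = 0.281).

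Cxcl2, a macrophage inflammatory protein that also binds CXCR2, rose in allogeneic skin. It had 0, 4, 1 and 0 counts in the Syn libraries and 207, 27, 9 and 9 in the Allo libraries, so that the lowest allogeneic library had more than any syngeneic one. A count of 0 allows up to 3 counts, or 0.117 CPM in Syn 1 and 0.0981 CPM in Syn 4, and such limits cover counting error only. Means were 0.0541 ± 0.0811 CPM in Syn and 2.97 ± 4.37 CPM in Allo (SD, n = 4 each). The log2 fold change was 5.74 ± 1.75 (edgeR adjusted p = 0.0241). It rests on few reads in Syn, where the total was 5, and it was lost without Allo 1 (3.84, edgeR adjusted p = 0.128) or without Syn 1, 3 or 4 (adjusted p = 0.0606 to 0.0692). The muscle covariate, in which Allo 1 lies far from all other libraries, also ended the call (3.14, adjusted p = 0.221). With both Allo 1 and Allo_H 4 left out, a setting chosen after seeing the data, the value of 3.84 was called (edgeR adjusted p = 0.0265).

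In the mCAN10 group Cxcl2 had 15, 13, 4 and 10 counts. All 4 libraries were above the highest Syn library, 2 of them lay within the CPM range of Allo and 2 below it. The mean was 0.410 ± 0.162 CPM (n = 4). Neither the difference from Allo (-2.84 ± 1.38, 95% interval -5.74 to 0.06, edgeR adjusted p = 0.215) nor that from Syn (2.90 ± 1.82, edgeR adjusted p = 0.524) was called. Without Allo 1, the first of these shrank to -0.95.

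Among the water-treated libraries Cxcl2 had 9, 7, 9 and 524 counts, and among the nintedanib libraries 0, 1, 0, 9 and 14. Allo_H 4 thus held nearly all Cxcl2 reads of its group, and the other 3 Allo_H libraries (0.371 to 0.5495 CPM) lay within the range of Nin (0 to 0.794 CPM). Across all libraries the fitted difference was a fall of 4.88 on the log2 scale (SE 1.40, edgeR adjusted p = 0.0353). This call was lost without Allo_H 4 (-0.85, adjusted p = 0.774). It was also lost without Nin 1, 2 or 3 (adjusted p = 0.0589 to 0.0741) and with a term for the note on 2 sequencing lanes that 5 libraries of this run carry (-3.42, adjusted p = 0.202).

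Cxcl3, a further ligand of CXCR2, had counts of 0, 3, 0 and 2 in Syn, 47, 9, 5 and 0 in Allo, and 0, 4, 0 and 12 in mCAN10. The second run had 1, 1, 7 and 80 counts in Allo_H and 0, 0, 2, 5 and 5 in Nin. The highest values fell in Allo 1 and Allo_H 4, the same libraries as for Cxcl2, and all group ranges compared overlapped. On the scale of log2(CPM + 0.5), which understates changes of low genes, Allo minus Syn was 0.86 (exact 2-sided permutation test, p = 0.143). The differences of mCAN10 from Allo (-0.63, exact p = 0.371), of mCAN10 from Syn (0.22, exact p = 0.714) and of Nin from Allo_H (-0.82, exact p = 0.222) were not larger than the spread between libraries.

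Cxcl5, which is made by epithelial cells, had 1, 1, 0 and 0 counts in Syn, 43, 1, 5 and 1 in Allo, and 2, 4, 4 and 2 in mCAN10. Its highest value was again in Allo 1, while Allo_H had 1, 1, 10 and 0 counts and Nin 4, 2, 0, 1 and 0. The Allo libraries did not overlap with the Syn libraries in CPM, with a difference of 0.74 (exact 2-sided permutation p = 0.0286, the smallest that groups of 4 allow). That separation includes libraries with a single count on both sides, which differ in CPM only by library size. The mCAN10 libraries did not overlap with Syn either (0.25, exact permutation p = 0.0286), but an edgeR fit without the filter did not call this difference (adjusted p = 0.727), whereas it called Allo against Syn (4.49, adjusted p = 0.0345). No difference was detected for mCAN10 against Allo (-0.49, exact p = 0.571) or Nin against Allo_H (-0.16, exact p = 0.643). These p-values for Cxcl3 and Cxcl5 are not adjusted for the 8 tests made.

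Cxcr2, the receptor, rose in allogeneic skin and was lower in both treated groups. In the first run it had 5, 29, 5 and 14 counts in Syn, 307, 401, 462 and 341 in Allo, and 24, 75, 24 and 45 in mCAN10. Allo did not overlap with either of the other groups, and its spread was small, with a mean of 19.65 ± 3.76 CPM (SD, n = 4) against 0.530 ± 0.490 CPM in Syn and 1.63 ± 0.699 CPM in mCAN10 (n = 4 each). The log2 fold change was 5.20 ± 0.81 for Allo against Syn (36.9-fold, edgeR adjusted p = 0.000264). For mCAN10 against Allo it fell by 3.58 on the log2 scale (SE 0.73, 11.99-fold lower, edgeR adjusted p = 0.00460). These calls held without each single library, with edgeR adjusted p up to 0.0018 and 0.0193, and in all other settings tried. Both comparisons share the Allo libraries.

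The mCAN10 libraries overlapped with Syn for Cxcr2, since Syn 2 (1.244 CPM) lay above mCAN10 1 and 3 (0.926 and 1.147 CPM). The difference of 1.62 ± 0.75 (95% interval 0.05 to 3.19) was not called (edgeR adjusted p = 0.350), which does not show that the receptor was at the syngeneic level.

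In the second run Cxcr2 had 358, 182, 140 and 713 counts in Allo_H and 26, 27, 13, 41 and 151 in Nin. Of the 5 Nin libraries, 4 were below every water-treated library, and Nin 5 (8.56 CPM) was above the lowest of these (7.86 CPM). Means were 20.0 ± 15.1 CPM (n = 4) and 2.845 ± 3.24 CPM (n = 5). Cxcr2 fell by 2.82 on the log2 scale (SE 0.65, 7.05-fold, edgeR adjusted p = 0.0128). The call was lost without Allo_H 4 (-2.21, adjusted p = 0.0645) and in a fit to the 9 libraries of this run alone (-2.81, adjusted p = 0.114). In bulk skin, fewer cells that carry a transcript and less transcript per cell cannot be told apart.

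**Figure D3:**
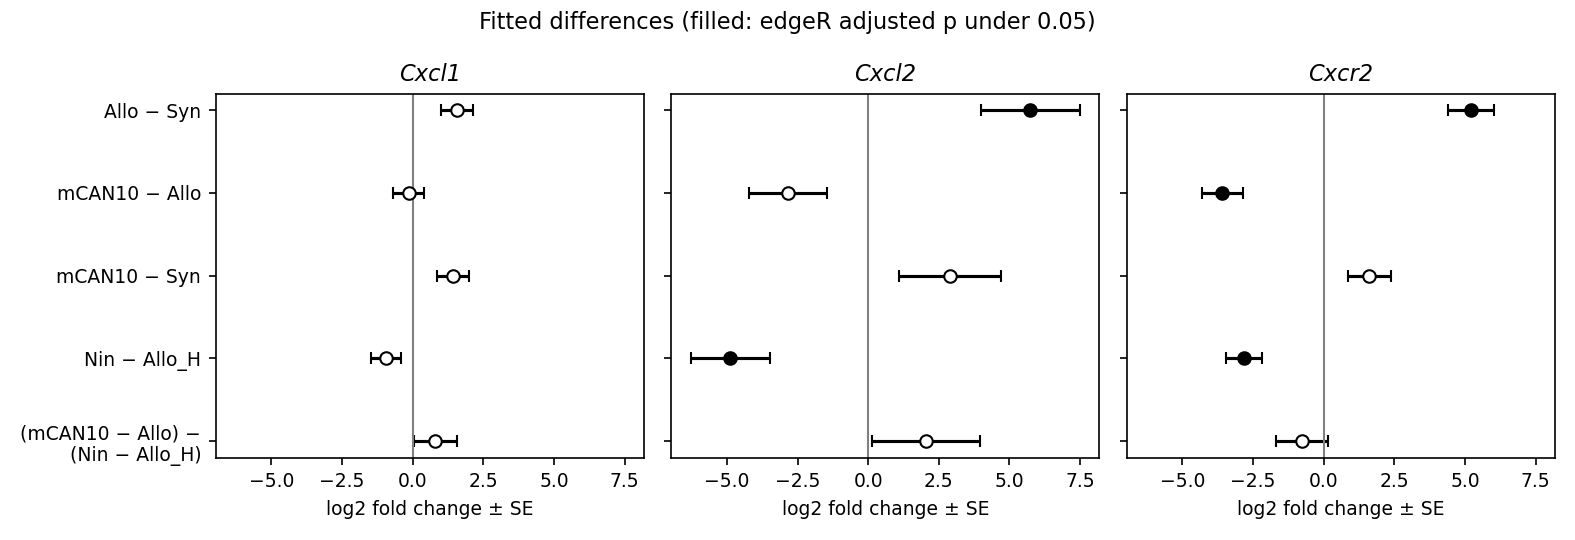
Fitted log2 fold changes (x axis) with their SE for Cxcl1, Cxcl2 and Cxcr2 in the 5 comparisons; filled points have an edgeR adjusted p under 0.05. Cxcr2 is filled for Allo against Syn (5.20), mCAN10 against Allo (-3.58) and Nin against Allo_H (-2.82), Cxcl2 for the first (5.74) and the last of these (-4.88), and Cxcl1 for none.

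Counted over the genes that could be tested, 2 of 3 (Cxcl2 and Cxcr2) rose in Allo against Syn, where 22.6% of all 20462 genes were called, 13.8% as higher and 8.8% as lower. For mCAN10 against Allo, 1 of 3 (Cxcr2) fell, with 10.8% of genes called, 5.58% higher and 5.19% lower. For Nin against Allo_H, 2 of 3 (Cxcl2 and Cxcr2) fell, with 9.31% called, 5.56% higher and 3.76% lower. In the fit to the 9 libraries of the second run alone, 94 genes in all were called for nintedanib, and none of these 3. For mCAN10 against Syn, edgeR called 0 of 3, with 0.811% of all genes called, 0.777% higher and 0.0342% lower. An unadjusted p under 0.05 was reached there by 2 of 3 (against 13.7% of all genes), and DESeq2 called 0 (674 genes in all). Each of these counts stands on at most 3 genes.

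Whether the antibody and nintedanib differed in effect was tested as the difference of both contrasts, each against its own control. It was 0.80 ± 0.75 for Cxcl1 (95% interval -0.78 to 2.39, edgeR adjusted p = 0.782), 2.04 ± 1.90 for Cxcl2 (-1.94 to 6.02, adjusted p = 0.779) and -0.77 ± 0.93 for Cxcr2 (-2.71 to 1.18, adjusted p = 0.892). No gene was called in this test by edgeR (0%), 2495 had an unadjusted p under 0.05, and DESeq2 called 363, neither Cxcl1 nor Cxcr2 among them, and gave Cxcl2 no adjusted p. For Cxcl2 and Cxcr2 the intervals hold differences of over 2-fold in either direction. The sign also turned for Cxcl2 without Allo_H 4 (-1.99) and for Cxcr2 without Nin 5 (0.24).

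**Figure D4:**
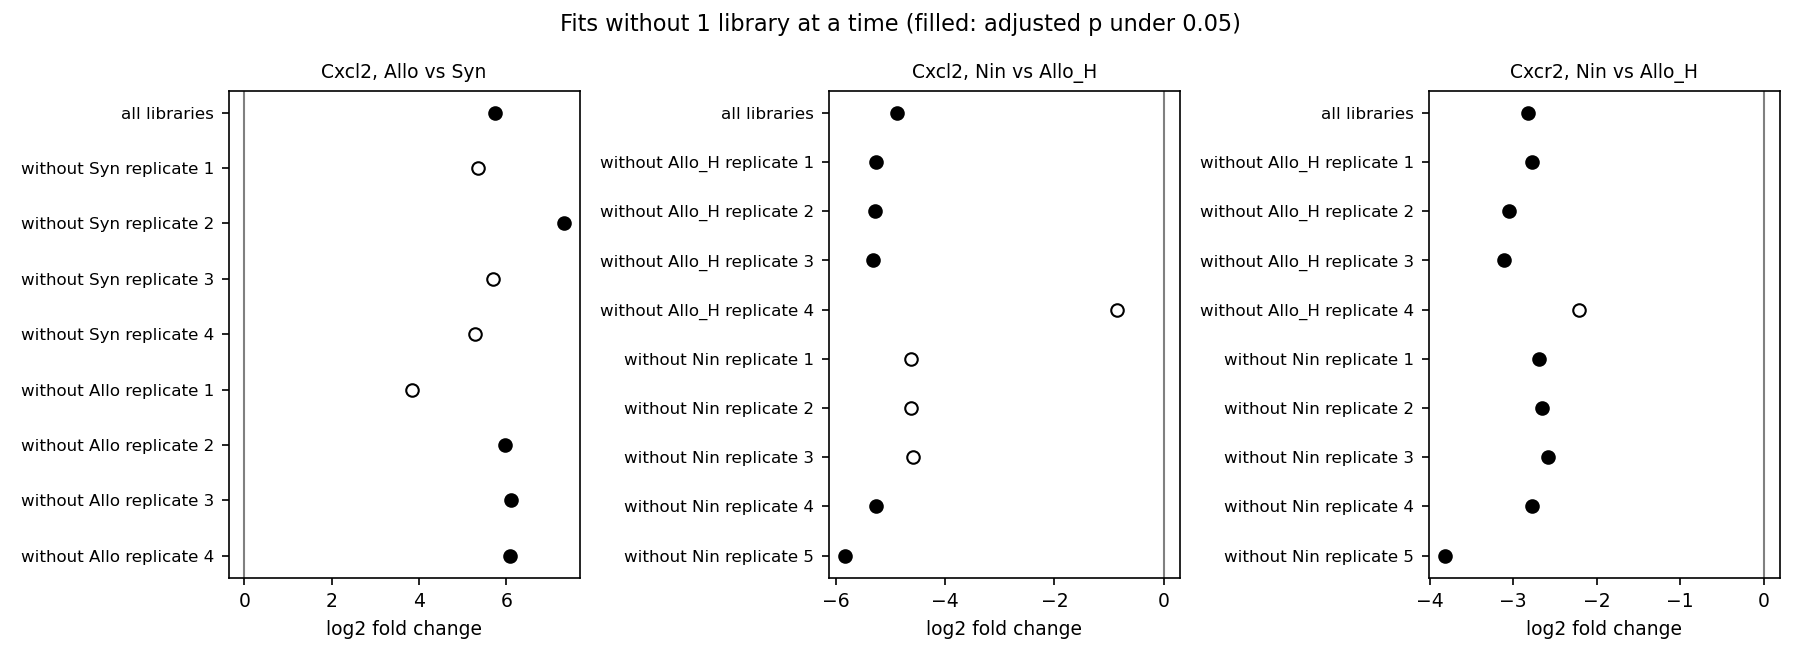
Log2 fold changes (x axis) of 3 called results in fits to all libraries and without 1 library at a time; filled points have an edgeR adjusted p under 0.05. Without Allo_H 4, the Cxcl2 difference between Nin and Allo_H moves from -4.88 to -0.85, while that of Cxcr2 moves from -2.82 to -2.21, and both lose the call.

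To set the genes beside each other, CPM were divided by the length of each gene's exons in kilobases. These lengths came from an older annotation, join the exons of all transcripts of a gene and are approximate. They were 1875 bases for Cxcl1 and 3498 for Cxcl3, whose protein-coding transcripts held only 904 and 967 different stretches of 50 bases. Cxcr2, by contrast, had 3048 bases and 3039 such stretches. Long lengths lower the values of Cxcl1 and Cxcl3 against those of Cxcr2. In the Allo group Cxcr2 led with 6.45 ± 1.23 CPM per kb (SD, n = 4), followed by Cxcl2 (1.44 ± 2.11), Cxcl1 (1.10 ± 1.02), Cxcl5 (0.3125 ± 0.4997) and Cxcl3 (0.205 ± 0.280). On these lengths, Cxcr2 (lowest library 4.62) narrowly cleared the ligands (highest library 4.59), and the neighbours among the ligands overlapped. That gap and the order of the ligands depend on the lengths used. In Syn, Cxcl1 led with 0.373 ± 0.122 CPM per kb, ahead of Cxcr2 (0.174 ± 0.161), with overlapping libraries, and Cxcl2, Cxcl3 and Cxcl5 were between 0.0110 and 0.0262. By group mean, the receptor mRNA was thus below the leading ligand mRNA in syngeneic skin and above all 4 ligand mRNAs in isotype-treated allogeneic skin. In mCAN10 skin Cxcl1 again had the highest mean (1.00 ± 0.545), above Cxcr2 (0.534 ± 0.229), with ranges that overlapped. In Allo_H Cxcr2 (6.56 ± 4.96) had the highest mean, ahead of Cxcl2 (3.78 ± 7.11) and Cxcl1 (0.832 ± 0.3005), but in Allo_H 4 Cxcl2 (14.45) was above Cxcr2 (13.3). In Nin (n = 5) Cxcr2 (0.933 ± 1.06) was ahead of Cxcl1 (0.429 ± 0.271), with overlapping libraries. Transcripts of Cxcl2 and Cxcl3 shared 61 stretches of 50 bases (3.28% and 6.31% of each), so that few reads could be split between them. No other pair of these genes shared any.

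How the genes varied inside the groups was described with correlations of their log2 CPM after subtraction of the group means, over 21 libraries that share tissue composition and handling. Cxcl2 and Cxcl3 varied together (r = 0.937), followed by Cxcl1 with Cxcl2 (r = 0.640) and Cxcl1 with Cxcl3 (r = 0.559). Cxcl5 had r = 0.459 with Cxcl1, 0.295 with Cxcl3 and 0.216 with Cxcl2. Cxcr2 had r = 0.470 with Cxcl2, 0.400 with Cxcl3, -0.124 with Cxcl1 and -0.337 with Cxcl5. Cxcl2 and Cxcl3 both had their highest values in Allo 1 and Allo_H 4.

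Of the ligands and receptors around this axis that were listed besides the 5 genes, 3 of 6 could be tested: Ackr1, Mif and Pf4. Ackr1, the atypical receptor that binds these chemokines on venules without signalling, moved opposite to Cxcr2 in the first run. Its mean was 25.0 ± 0.515 CPM in Syn, 10.1 ± 1.78 in Allo and 32.6 ± 6.07 in mCAN10 (SD, n = 4 each), and Allo overlapped with neither. It was lower in Allo than in Syn (-1.30 ± 0.21, edgeR adjusted p = 0.000352) and higher in mCAN10 than in Allo (1.68 ± 0.21, adjusted p = 0.000199), and both calls held in every setting tried. Nin and Allo_H overlapped, with a difference of 0.15 ± 0.20 (edgeR adjusted p = 0.753). The differences of most endothelial markers had the sign of that of Ackr1 in the first run. Of 8, 7 were lower in Allo than in Syn (median -0.42). Tek and Kdr were called (25% of the list, against 8.8% of all genes called lower). In mCAN10 against Allo 8 were higher (median 0.54), where edgeR called 0 (against 10.8% of all genes). Of these 8, 2 had an unadjusted p under 0.05 (against 24.5% of all genes), and DESeq2 called 0 (3179 genes in all). The endothelial sums were 228 to 360 CPM in Syn, 137 to 253 in Allo and 252 to 327 in mCAN10. The part of these markers in the Ackr1 values was not tested. Of the 3 genes under the filter, Cxcr1, the sister receptor, had at most 10 counts in any library, Ppbp reached 192 counts in 1 Nin library, and Cxcl15 reached 78 in 1 Syn library.

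Signals that switch the ligands on, and their transducers, were listed as 26 inducers, of which 25 had counts and 20 could be tested. In Allo against Syn 12 rose (60%, against 13.8% of all genes), 0 fell and 8 were not called (median log2 fold change 1.16 against 0 over all genes). Among them were Myd88 (1.23 ± 0.15, edgeR adjusted p = 5.49e-05), the adaptor of IL-1 family receptors, Il36a (5.64 ± 0.78, adjusted p = 0.000114), Il36b (3.64 ± 0.53, adjusted p = 0.000151) and the transcription factor Cebpb (1.09 ± 0.15, adjusted p = 0.000133). Under mCAN10 6 of 20 fell (30%, against 5.19% of all genes; median -0.67), including Il36b (-3.13 ± 0.51, adjusted p = 0.00114), Il36a (-4.20 ± 0.72, adjusted p = 0.00157), Il36g (-2.27 ± 0.49) and Cebpb (-0.71 ± 0.15). Under nintedanib 5 of 20 fell (25%, against 3.76% of all genes; median -0.74), including Myd88 (-0.91 ± 0.14, edgeR adjusted p = 0.00153), Cebpb (-0.78 ± 0.14), Cebpd (-1.61 ± 0.31) and Il36a (-2.31 ± 0.61, adjusted p = 0.0253). For mCAN10 against Syn edgeR called 0 of 20. Of these 20, 6 had an unadjusted p under 0.05 (against 13.7% of all genes), and DESeq2 called 2 (674 genes in all). Without single libraries the nintedanib count ran from 3 to 12, and in the fit to the second run alone Myd88, Cebpb and Cebpd were not called (edgeR adjusted p = 0.0569, 0.0881 and 0.0631). Il36a lost its nintedanib call in 3 of 9 fits without 1 library (edgeR adjusted p up to 0.0864) and in 3 of 11 other settings. Il17a had 1 read in all 21 libraries and Csf3, the neutrophil growth factor, at most 9 in any.

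Regulators of the stability of ligand mRNAs and of feedback on NF-κB were described in the same way. Of 12 such genes 9 rose in Allo against Syn (75%, against 13.8% of all genes; median 0.69), among them Zc3h12a, which encodes the RNase Regnase-1 (1.19 ± 0.21, edgeR adjusted p = 0.000779), Tnfaip3, which encodes A20 (1.44 ± 0.27), Bcl3 (1.64 ± 0.31) and Zfp36, which encodes tristetraprolin (0.92 ± 0.20). One, Bcl3, fell under mCAN10 (8.33% of the list, against 5.19% of all genes; -1.03 ± 0.31, edgeR adjusted p = 0.0383), a call lost in all 8 fits without 1 library (adjusted p = 0.0503 to 0.101). Under nintedanib 3 fell (25%, against 3.76% of all genes): Bcl3 (-1.88 ± 0.29), Zc3h12a (-1.26 ± 0.20) and Arid5a, which stabilises inflammatory mRNAs (-0.94 ± 0.26, edgeR adjusted p = 0.0298). Arid5a lost this call in 5 of 9 fits without 1 library (Allo_H 2, 3 or 4, Nin 1 or 2, adjusted p up to 0.0764) and in the fit to the second run alone (adjusted p = 0.172), where Bcl3 was not called either (adjusted p = 0.0594). The nintedanib count ran from 2 to 4 and the Allo against Syn count from 5 to 9 without single libraries. For mCAN10 against Syn edgeR called 0 of 12. Of these 12, 7 had an unadjusted p under 0.05 (against 13.7% of all genes), and DESeq2 called 1 (674 genes in all).

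Downstream of the receptor, 23 genes of CXCR2 signalling and neutrophil adhesion were tested. In Allo against Syn 11 rose (47.8%, against 13.8% of all genes) and 0 fell (median 1.13), among them the G protein subunit Gnai3 (0.78 ± 0.15, edgeR adjusted p = 0.00155), the integrin chain Itgal (2.96 ± 0.62) and the kinase Fgr (2.31 ± 0.59). Under mCAN10 1 fell, Gnai3 (-0.50 ± 0.15, edgeR adjusted p = 0.0415, lost in 7 of 8 fits without 1 library), with a list median of -0.13, and the other genes of the list were not called. This is 4.35% of the list, near the 5.19% of all genes called lower. Under nintedanib 3 fell (13% of the list, against 3.76% of all genes; median -0.51): Plcb3 (-0.51 ± 0.11), the receptor kinase Grk2 (-0.50 ± 0.13) and Prex1 (-1.19 ± 0.37, adjusted p = 0.0480). Plcb3, Grk2 and Prex1 lost this call in 1, 2 and 7 of 9 fits without 1 library. They also lost it in 3, 3 and 7 of 11 other settings. Without single libraries the counts of genes called ran from 7 to 13 in Allo against Syn, 0 to 1 under mCAN10 and 0 to 7 under nintedanib. For mCAN10 against Syn edgeR called 0 of 23. Of these 23, 15 had an unadjusted p under 0.05 (against 13.7% of all genes), and DESeq2 called 2 (674 genes in all). Most of these genes are active in all white blood cells.

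Other CXC chemokines and chemokine receptors, many of which guide lymphocytes, were set beside the 5 genes. Of 12 tested, 7 rose in Allo against Syn (58.3%, against 13.8% of all genes; median 1.71), among them the interferon-induced chemokines Cxcl9 (6.54 ± 1.01), Cxcl10 (5.67 ± 0.80) and Cxcl11 (6.19 ± 0.80, edgeR adjusted p = 7.66e-05) and the B cell attractant Cxcl13 (3.89 ± 0.72). Under mCAN10 2 fell (16.7%, against 5.19% of all genes), Cxcl11 (-3.19 ± 0.68, adjusted p = 0.00572) and Cxcr4 (-1.26 ± 0.34, adjusted p = 0.0222, lost in 3 of 8 fits without 1 library). Cxcl10 (3.85 ± 0.74, edgeR adjusted p = 0.0173), Cxcl9 (4.57 ± 0.92, adjusted p = 0.0247) and Cxcr6 (2.87 ± 0.66, adjusted p = 0.0473) were higher in mCAN10 than in Syn. They are 25% of the list, against 0.777% of all genes called higher. Each lost that call without some single libraries, and the count fell to as low as 0. Under nintedanib edgeR called 0 of 12 (against 9.31% of all genes). Of these 12, 4 had an unadjusted p under 0.05 (against 25.5% of all genes), and DESeq2 called 3 (3058 genes in all).

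Because CXCR2 is best known on neutrophils, 16 other neutrophil genes were examined beside it. Ly6g, the defining surface marker in mice, had at most 5 counts in any library and 0 in 10 of them, while Cxcr2 had 140 to 713 counts in the allogeneic controls. Mrgpra2b had at most 6 counts and was at 0 in every Syn, mCAN10 and Nin library. The granule genes Camp, Mpo and Ngp reached 11, 39 and 35 counts, and Mpo was at 0 in every Allo_H library. Of 11 tested, 6 rose in Allo against Syn (54.5%, against 13.8% of all genes; median 1.91), namely S100a9 (3.89 ± 0.87, edgeR adjusted p = 0.00375), Fpr2 (3.45 ± 0.93), Csf3r (1.91 ± 0.57), S100a8 (2.54 ± 0.83), Mmp8 and Fpr1. Of these, S100a8, S100a9 and Fpr1 are also made by keratinocytes or macrophages. Under mCAN10 2 fell (18.2%, against 5.19% of all genes), S100a9 (-2.96 ± 0.83, adjusted p = 0.0264) and S100a8 (-2.78 ± 0.84, adjusted p = 0.0390). The list median there was -0.85, with 8 of 11 differences negative. Under nintedanib Ltf fell (-6.95 ± 2.03) and Padi4 rose (2.75 ± 0.83), calls lost in 5 and 6 of 9 fits without 1 library. These are 18.2% of the list, against 9.31% of all genes called in either direction. Of the 11 differences under nintedanib, 10 were negative and 1, that of Padi4, was positive (median -1.68). An unadjusted p under 0.05 was reached there by 8 of 11 (against 25.5% of all genes), and DESeq2 called 4 (3058 genes in all). Ltf was at -3.14 without Allo_H 3, and Padi4 at 1.43 without Nin 1 (edgeR adjusted p = 0.326 and 0.197). The libraries with the most Padi4, Nin 1 (185.1 CPM) and Nin 3 (58.6 CPM), are those with the high hair follicle sums given above. All 6 hair follicle genes had positive differences under nintedanib, with 2 called (33.3%, against 5.56% of all genes called higher). Their part in these values was not tested. For mCAN10 against Syn edgeR called 0 of 11. Of these 11, 1 had an unadjusted p under 0.05 (against 13.7% of all genes), and DESeq2 called 0 (674 genes in all). Without single libraries these counts ran from 2 to 6 in Allo against Syn, 0 to 2 under mCAN10 and 0 to 4 under nintedanib.

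Summed over the 16 neutrophil genes, levels ran from 11.7 to 54.9 CPM in Syn, 54.2 to 137.6 in Allo and 29.25 to 50.8 in mCAN10. They ran from 59.8 to 145.7 CPM in Allo_H and 23.9 to 203.1 in Nin. Means were 28.2 ± 19.5 CPM in Syn and 86.2 ± 40.1 CPM in Allo (SD, n = 4 each). The ranges of these groups overlapped by a single Syn library, Syn 1 (54.9 CPM), which lay above Allo 2 and Allo 4 (54.6 and 54.2 CPM). The other 3 Syn libraries were at 11.7 to 30.2 CPM. Nin 1 had the highest neutrophil sum of any library, of which Padi4 made up 185.1 CPM, and a Cxcr2 level of 1.45 CPM.

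Between groups, most of 6 genes of activated keratinocytes, which mark wounded or inflamed epidermis, moved with Cxcr2. Of these, 5 rose in Allo against Syn (83.3%, against 13.8% of all genes; median 6.45), 5 fell under mCAN10 (83.3%, against 5.19%; median -5.53) and 4 fell under nintedanib (66.7%, against 3.76%; median -3.55). Their summed level was 829 to 1337 CPM in Syn, 4230 to 9231 in Allo and 1152 to 1646 in mCAN10, and 2202 to 11120 in Allo_H and 844 to 2762 in Nin. Within Allo_H, the libraries with the highest Cxcr2 (Allo_H 4 and 1, at 40.66 and 21.86 CPM) had sums of 11120 and 8757 CPM, and those with the lowest (Allo_H 2 and 3, at 9.65 and 7.86 CPM) had 2202 and 3301 CPM. Within Allo the order was different: Allo 1 had the highest sum (9231 CPM) with the lowest Cxcr2 (14.08 CPM), and Allo 2 the lowest sum (4230 CPM) with 20.85 CPM of Cxcr2. Within Nin, Nin 1 had the highest sum (2762 CPM) with 1.45 CPM of Cxcr2, and Nin 5 had 1949 CPM with the highest Cxcr2 (8.56 CPM). The keratin Krt16, for example, was at 900 to 3466 CPM in Allo and 35.2 to 81.4 CPM in mCAN10. Genes of keratinocytes in general mostly had differences of the same sign. Of 8, 4 rose in Allo against Syn (50%, median 1.07), 3 fell under mCAN10 (37.5%, median -1.17) and 2 under nintedanib (25%, median -0.98). Over all genes these shares were 13.8%, 5.19% and 3.76%. Sums were 17480 to 29920 CPM in Syn, 49190 to 82920 in Allo and 19860 to 30880 in mCAN10. In the second run they were 40800 to 86480 CPM in Allo_H and 8642 to 45630 in Nin. Of 11 macrophage and monocyte genes, 7 rose in Allo against Syn (63.6%, against 13.8% of all genes), with a median of 1.51. Under mCAN10 edgeR called 0 of these 11 (against 10.8% of all genes) and DESeq2 called 0 (3179 genes in all). An unadjusted p under 0.05 was reached there by 0, against 24.5% of all genes. Under nintedanib 1 fell (9.09%, against 3.76% of all genes), and this count ran from 0 to 6 without single libraries. The median was -0.90, with 9 of 11 differences negative. An unadjusted p under 0.05 was reached by 6 (against 25.5% of all genes), and DESeq2 called 5 (3058 genes in all). The part of these cell types in the Cxcr2 values was not tested.

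**Figure D5:**
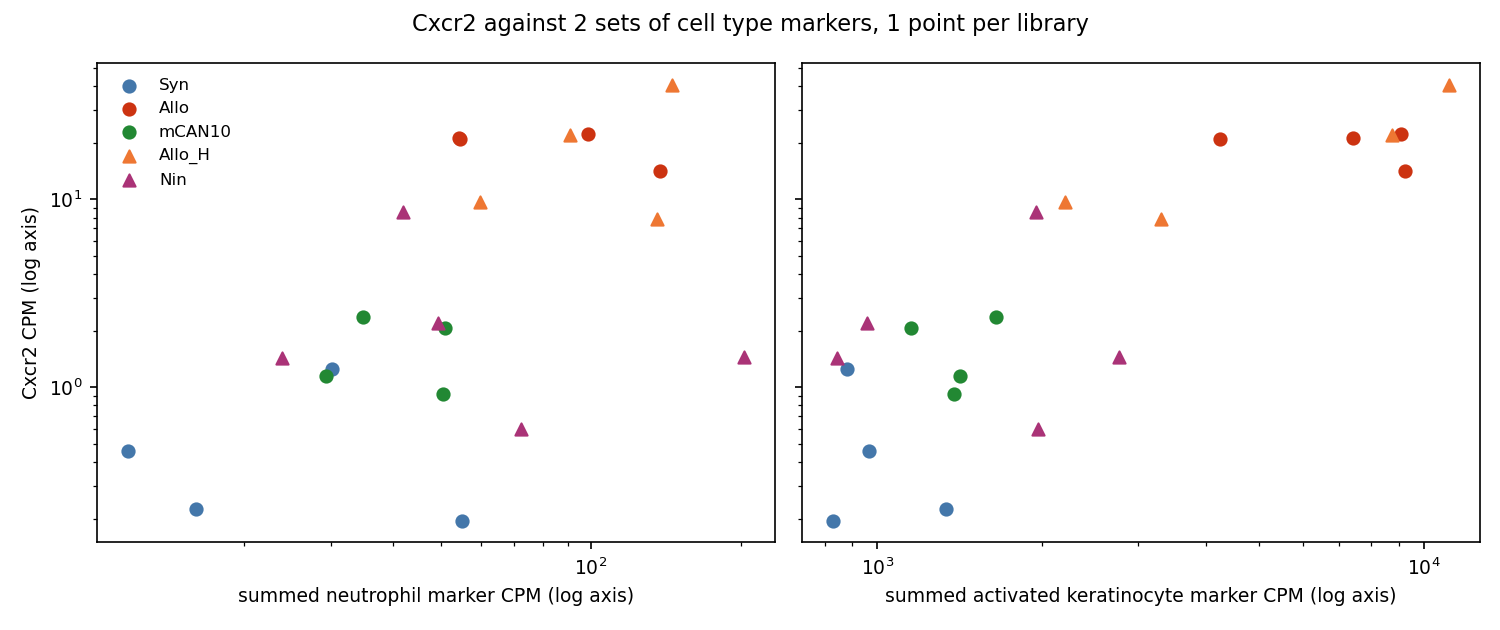
Cxcr2 CPM (log y axis) against the summed CPM of 16 neutrophil genes (left) and of 6 activated keratinocyte genes (right), both on log x axes, with 1 point per library, circles for the first counting run and triangles for the second. The neutrophil sums of Syn (11.7 to 54.9 CPM) and Allo (54.2 to 137.6 CPM) overlap by a single Syn library, while the activated keratinocyte sums of Allo (4230 to 9231 CPM) lie above all Syn and mCAN10 sums (829 to 1646 CPM).

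Some immediate early and heat shock genes, which respond to tissue handling, differed between groups as well. Of 11, 4 rose in Allo against Syn (36.4%, against 13.8% of all genes; median 0.89), 1 fell under mCAN10 (9.09%, against 5.19%; median -0.17) and 4 fell under nintedanib (36.4%, against 3.76%; median -0.93). For mCAN10 against Syn edgeR called 0 of 11. Of these 11, 7 had an unadjusted p under 0.05 (against 13.7% of all genes), and DESeq2 called 1 (674 genes in all). The sums of the 11 genes were 646 to 927 CPM in Syn, 998 to 1836 in Allo and 977 to 1514 in mCAN10. In the second run they were 1282 to 1823 CPM in Allo_H and 627 to 1027 in Nin. Their part in the ligand values was not tested.

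The genes whose pattern was most like that of each tested gene were taken as the 5 with the highest Pearson r of log2 CPM over the 12 libraries of the first run, among 14606 genes with a mean of at least 1 CPM. For Cxcr2 these were Pi4k2a (r = 0.975), Gsdmc4 (0.966), Tbc1d9 (0.965), Dhrs9 (0.965) and Tor1aip2 (0.9645). Over the 9 libraries of the second run, the same genes had r between 0.391 (Dhrs9) and 0.9045 (Tor1aip2). For Cxcl2 they were Timp1 (0.946), Slc29a3, Orai2, Nudcd2 and Ttc39c (0.9375), with r between -0.426 and 0.797 in the second run. For Cxcl1 they were Arhgef1 (0.941), Man2a1, Pafah1b2, Tnfsf9 and Tespa1 (0.895), with r between -0.645 and 0.820. After subtraction of the group means, over 21 libraries, r ran from 0.3615 (Dhrs9) to 0.6497 (Gsdmc4) for Cxcr2, from -0.143 (Nudcd2) to 0.7345 (Ttc39c) for Cxcl2 and from 0.101 (Pafah1b2) to 0.821 (Tespa1) for Cxcl1. The values in the first run hold differences between groups as well as within them, and they are descriptions without a test.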

How the data were processed

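Poly-A RNA was measured in 21 skin libraries in 5 groups. The deposited values are counts of reads per gene symbol, made by the authors. The submitters' processing notes name STAR, featureCounts, Trimmomatic, FastQC and the GRCm39 build, with annotation and versions not given in the sources used here. Because the kit does not mark strand, antisense reads cannot be told apart. No other gene's exons overlap those of the 5 genes in an older annotation.

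The test was that of edgeR 4.0.16 (R 4.3.3): filterByExpr (minimum count 10), TMM scaling, 1 quasi-likelihood fit to 21 libraries with a mean per group, and Benjamini-Hochberg adjustment over 20462 genes at 0.05. "Rose", "fell" and "called" mean passing this test. Medians are of log2 fold changes, and that over all genes was 0 in each comparison but mCAN10 against Syn (0.0329) and the treatment difference (-0.0496). SEs were derived from the log2 fold change and the F statistic. The planned test could not be made for Cxcl3 and Cxcl5, which were below the filter, so log2(CPM + 0.5) was compared with exact 2-sided permutation tests. Named genes were the 5 genes, up to 4 of each list with the lowest p, and the genes most alike; 1 gene that this rule picked is not reported here. Alternatives were RLE size factors, no filter, libraries of 1 run or of the groups compared, a replicate block, symbols in both runs, the muscle share or lane note as covariate, DESeq2 1.42.0 and leaving out each library. The scripts' calculations were tested on simulated data. The genes, lists and tests were chosen with earlier results of these data known. Figures were drawn with matplotlib 3.10.9.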

Additional observations from a re-analysis of the deposited data

Results flagged for a closer look

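In groups of 4 or 5 libraries, the highest library was far from the others by Dixon's criterion in 9 of 30 groups examined. The rate of about 1 in 20 that this criterion gives by chance holds for independent normal values. It does not apply here, since many of these CPM rest on few counts and the groups share libraries. The 2 libraries Allo 1 and Allo_H 4 account for 5 of the 9 groups. Cxcl2 was at 9.495 CPM in Allo 1 (next 1.404 CPM) and at 29.88 CPM in Allo_H 4 (next 0.5495 CPM). Allo 1 also had 1.972 CPM of Cxcl5 (next 0.2418 CPM), and Allo_H 4 had 4.562 CPM of Cxcl3 (next 0.3929 CPM) and 2.395 CPM of Cxcl1 (next 1.403 CPM).

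The anti-IL1RAP library mCAN10 1 had 3.395 CPM of Cxcl1 (next 1.511 CPM). In Allo_H 3, Cxcl5 was at 0.5612 CPM (next 0.06105 CPM), which is 10 counts against 1. Cxcr2 was at 8.56 CPM in Nin 5 (next 2.185 CPM), and the summed neutrophil genes were at 203.1 CPM in Nin 1 (next 72.23 CPM).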

How the results depend on the processing

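Cxcr2 was called in Allo against Syn and in mCAN10 against Allo under every setting tried. Reversed signs were seen only among differences that were not called. For Cxcl1, mCAN10 against Allo was 0.032 with a replicate block by description number, 0.59 with the muscle covariate, -0.62 to 0.75 without single libraries (0.75 without Allo 1, 0.013 without mCAN10 2), and 0.75 without both Allo 1 and Allo_H 4. The treatment difference was -1.99 to 3.935 for Cxcl2 without single libraries (-1.99 without Allo_H 4) and -0.10 without both libraries. For Cxcr2 it was 0.069 with a replicate block by title number and -1.37 to 0.24 without single libraries (0.24 without Nin 5). The cause was not tested.

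Of the 3 genes tested, those called in Allo against Syn numbered 1 with only the groups compared, where Cxcl2 fell under the filter, and 1 with the muscle covariate (1 to 3 without single libraries). In Nin against Allo_H they numbered 0 with only libraries of the counting run or the groups compared, 0 without both libraries, 1 with the lane term, 1 by DESeq2, which gave Cxcl2 no adjusted p, and 0 to 2 without single libraries.

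Counts of genes called over the whole table moved as follows. In Allo against Syn, 3580 to 4953 genes were called without single libraries (4621 with all). In mCAN10 against Allo, 2204 became 3664 with only the counting run and 1284 to 2168 without single libraries. In mCAN10 against Syn, 166 became 505 with the counting run, 2131 with the groups compared, 106 with symbols in both runs, 674 by DESeq2 and 31 to 152 without single libraries. In Nin against Allo_H, 1906 became 1190 without the filter, 94 with the counting run, 94 with the groups compared, 3058 by DESeq2, 781 without both libraries and 782 to 2794 without single libraries. The treatment difference had 363 calls by DESeq2 and 0 to 7 without single libraries.

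Whether replicate numbers in the labels pair the libraries was left undecided, since deviations from the means of few libraries also hold differences in tissue composition. Correlations of same-numbered deviations from the group means ran from -0.228 to 0.196 in Allo against Syn. In mCAN10 against Allo they ran from -0.0317 to 0.347 by title number and from -0.354 to 0.265 by description number. With a replicate block, Nin against Allo_H had 1 of these genes called by title number and 1 by description number, since Cxcl2 was not called (adjusted p = 0.0505 and 0.09998 by edgeR), and mCAN10 against Syn had 98 and 60 genes called. The scarcity of ligand reads, 5 Cxcl2 counts in all of Syn, limits each ligand comparison. Leaving out both Allo 1 and Allo_H 4, and a pseudocount of 1, were chosen after seeing the data.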
